A study of Mus musculus with 15 samples.

Results

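Liver RNA of adult mice given arsenic after weaning was compared directly with that of adults exposed only before birth. The 6 arrays compared were 3 labelled 10 week tap/as and 3 labelled 10 week as/tap, out of 15 in the series, and all were chosen by their titles. The tap/as mice had tap water without arsenic up to PND21 (postnatal day), the day of weaning, and then water with 49 ppm arsenic, given as 85 mg/L sodium arsenite, until their livers were taken at 10 weeks. The as/tap mice came from dams that drank the same concentration from gestational day 8 to birth, after which dams and pups had arsenic-free tap water to 10 weeks. Another 3 arrays of mice of the same age that never had arsenic in their water, labelled 10 week tap/tap, did not enter the comparison and were used to place both exposed groups. The remaining 6 arrays were of newborn liver and served the shared estimate of the spread and a mark of age. The sources differ on the strain, since the study's methods describe ApoE-knockout mice, without describing the tap/as group, and the strain label of every array reads C57/BL6J. No array is labelled as a wild type control. The 3 mice of a group came from separate litters, and the sex of the adult mice is not given in the sources used here.

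Inorganic arsenic that reaches the liver is reduced and methylated there and leaves mainly through the urine, and trivalent arsenic binds the thiol groups of proteins and raises oxidative stress. Arsenic also crosses the placenta, so a dam's drinking water exposes the fetal liver while it is still a site of blood formation. ApoE is the apolipoprotein through which the liver takes up lipoprotein remnants, and mice without it have high plasma cholesterol. The groups compared here differ in the age at exposure, in the route, in its length and in whether arsenic was still being taken in when the liver was sampled, and these cannot be told apart.

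Each array paired Cy3-labelled RNA of one liver with the same Cy5-labelled reference, RNA pooled from mouse cell lines, and carried 60-base probes. Values below are log2 ratios of liver over reference, so that 0 is a signal equal to that of the reference, and a difference of 1 between groups is a doubling. The files give each probe an identifier and a sequence but no gene and no position in the genome, so results are given by probe. The labelled tissue could not be checked against liver markers for the same reason. In whole liver, fewer cells of a type and less RNA per cell cannot be told apart. A probe was called where the unadjusted p of the test across all probes, made with limma, was under 0.01, which is the threshold the study's methods name.

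The 12 probes described first had the smallest p in each direction among those whose 3 tap/as and 3 as/tap values did not overlap. Their sequences are printed because they are the only identity the files give these transcripts, so that each can be looked up. No other probe on the array shared a run of 25 bases with any of them on either strand. Comparisons of these probes with tap/tap reuse the tap/as or as/tap arrays by which the probes were chosen, so their p-values are partly fixed by that choice and are given as descriptions. The first 6 were higher in tap/as.
Z00020599-1: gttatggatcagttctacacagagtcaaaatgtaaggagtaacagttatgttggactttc
Z00001140-1: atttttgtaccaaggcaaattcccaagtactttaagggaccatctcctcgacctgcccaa
Z00047557-1: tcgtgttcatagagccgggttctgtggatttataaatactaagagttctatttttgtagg
Z00058734-1: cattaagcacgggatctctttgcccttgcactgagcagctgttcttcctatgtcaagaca
Z00050827-1: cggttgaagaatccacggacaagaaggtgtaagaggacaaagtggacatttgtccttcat
Z00053741-1: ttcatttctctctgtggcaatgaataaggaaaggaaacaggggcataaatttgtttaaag
The other 6 were lower in tap/as.
Z00041696-1: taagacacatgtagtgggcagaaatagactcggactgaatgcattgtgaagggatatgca
Z00007118-1: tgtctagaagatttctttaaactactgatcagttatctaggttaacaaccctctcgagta
Z00068616-1: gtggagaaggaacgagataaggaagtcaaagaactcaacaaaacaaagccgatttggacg
Z00006531-1: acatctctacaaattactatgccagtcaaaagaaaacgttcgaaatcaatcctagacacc
Z00035485-1: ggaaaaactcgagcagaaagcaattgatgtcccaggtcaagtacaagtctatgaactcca
Z00031338-1: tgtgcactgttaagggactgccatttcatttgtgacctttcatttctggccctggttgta

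The livers of the exposed groups differed little from each other. Of 42006 probes tested, 721 were called, which is 1.72%, and a uniform distribution of p would give 420. Of the called probes, 454 were higher in tap/as (1.08% of all probes) and 267 were lower (0.636%), so 63.0% of the calls were higher. Without subtraction of the local background 453 were higher and 419 lower, so the number of higher calls was alike, the number of lower calls grew and the share higher was 51.9%. After Benjamini-Hochberg adjustment 2 probes (0.00476%) passed 0.05 with limma, 1 in each direction, and 2557 had an unadjusted p under 0.05. The typical called difference was small, with a median of 0.38 on the log2 scale for the higher probes and a median size of 0.37 for the lower ones, against a median size of 0.06 over all probes. Only 33 called probes differed by 1 or more, 17 higher and 16 lower. In the same fit more probes were called between each exposed group and tap/tap, 4.53% for tap/as and 3.53% for as/tap, and these counts share the tap/tap arrays. They were not repeated with a tap/tap array left out, and tap/tap replicate 1 stood apart from the other tap/tap arrays, as described below.

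**Figure D1:**
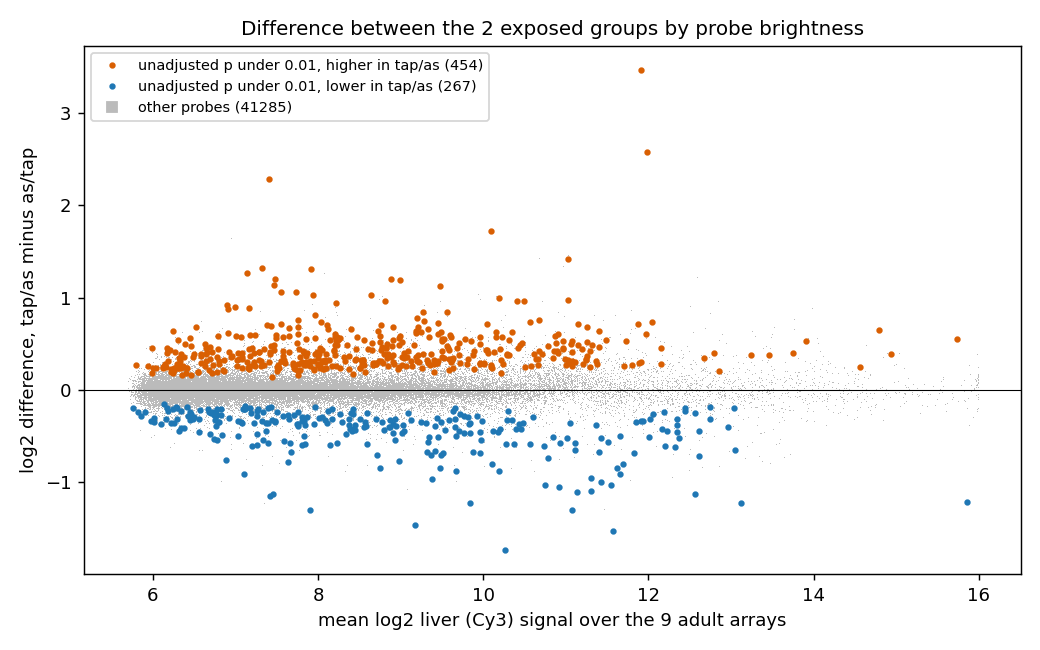
Each point is 1 of 42006 probes, with its mean log2 liver signal over the 9 adult arrays on the horizontal axis and the log2 difference between the groups, tap/as minus as/tap, on the vertical axis. The 454 called higher and 267 called lower probes are coloured, and most lie within 1 of 0 while 3 lie above 2.

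Values of the groups did not overlap for 15.9% of all probes, 8.39% with tap/as higher and 7.47% with tap/as lower, and for 689 of the 721 called ones, which the choice by p brings about. Called probes were commoner among bright ones, with 3.07% called among the 10502 probes of highest liver signal and 0.8% among the 10502 of lowest. They were also commoner among probes whose transcript is far from the reference. Of the probes with liver over reference above 1, 3.92% were called, as were 3.4% of those below -1 and 1.36% of those in between.

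The largest difference by its p was that of probe Z00020599-1, which was higher in tap/as. Its log2 ratios were 2.51, 2.15 and 2.25 in tap/as, -0.19, -0.12 and 0.36 in as/tap, and 0.46, -0.22 and -0.40 in tap/tap. The 3 tap/as livers thus stood at least 1.69 above each of the other 6 adult livers, which overlapped one another. The difference was 2.29 ± 0.19 (SE), or 4.88-fold, with an adjusted p of 0.0010 in limma. It was 1.08 without subtraction of the local background, and the adjusted p was under 0.05 in 21 of 22 alternatives, the exception being 0.099 in limma with the 9 adult arrays alone. Between tap/as and tap/tap it was 2.35 (adjusted p = 0.00035 in limma), and between as/tap and tap/tap it was 0.07 (adjusted p = 0.95 in limma). The newborn means were 0.33 with and 0.24 without arsenic, so newborns of dams on arsenic were not near the tap/as level either. The reference channel differed by 0.02 between the groups at this probe, and the median liver signal over background was 426 in tap/as and 61.0 in as/tap.

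The only other probe past the adjusted threshold was Z00041696-1, which was lower in tap/as. It read -0.69, -0.46 and -0.83 in tap/as, 0.50, 0.23 and 0.67 in as/tap, and 0.39, 0.10 and 0.40 in tap/tap. Again the tap/as livers stood alone, below every other adult liver, while as/tap and tap/tap overlapped. The difference was -1.12 ± 0.12 (SE), with an adjusted p of 0.0074 in limma. It was -0.43 without subtraction of the local background, and the adjusted p was under 0.05 in 13 of 22 alternatives, the highest being 0.15 with the 6 compared arrays alone. In newborn liver the probe was lower still, at -1.76 without and -1.55 with arsenic.

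The next 5 probes that were higher in tap/as had smaller differences, between 0.38 and 1.06, and adjusted p-values of 0.12 to 0.14 in limma. Z00047557-1 read 2.01, 1.92 and 2.35 in tap/as, 0.93, 1.28 and 0.89 in as/tap, and 1.05, 1.34 and 1.61 in tap/tap. The tap/tap livers lay between the exposed groups and overlapped as/tap. Without subtraction of the local background the difference of 1.06 was 0.49. This transcript was much higher at birth, with means of 3.53 without and 3.91 with arsenic, so tap/as adults were the adult group nearest to the newborn level. Z00058734-1 read 2.23, 1.92 and 1.93 in tap/as, 1.48, 1.50 and 1.13 in as/tap, and 1.40, 1.31 and 1.20 in tap/tap. Z00050827-1 read -1.32, -1.40 and -1.04 in tap/as, -1.91, -1.87 and -1.71 in as/tap, and -1.86, -1.77 and -1.96 in tap/tap. At both probes as/tap and tap/tap overlapped, and tap/as was higher than all 6. The difference of 0.57 at Z00050827-1 was 0.23 without subtraction of the local background.

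Of the 2 remaining higher probes, Z00053741-1 read 2.28, 2.45 and 2.40 in tap/as, 1.89, 1.89 and 1.85 in as/tap, and 1.84, 1.79 and 1.76 in tap/tap. Z00001140-1 read -0.33, -0.35 and -0.20 in tap/as, -0.62, -0.71 and -0.69 in as/tap, and -0.83 in each tap/tap liver. Both were ordered tap/as, as/tap, tap/tap without overlap. The as/tap livers lay 0.16 above tap/tap at Z00001140-1 and 0.08 above at Z00053741-1, with adjusted p-values of 0.30 and 0.78 in limma, so these smaller steps were not past the threshold.

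The probes that were lower in tap/as fell into different patterns. At Z00007118-1, as at Z00041696-1, tap/as was the group apart, with 0.04, 0.44 and 0.03 against 1.23, 1.40 and 1.31 in as/tap. The tap/tap livers read 0.93 and 1.59 there, and the value of replicate 1 was set missing because its spot was an outlier on the array. The difference was -1.15 ± 0.15 (SE), with an adjusted p of 0.074 in limma, and it was -0.44 without subtraction of the local background. At the other 4 probes it was as/tap that stood apart.

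Z00068616-1 read -2.07, -2.55 and -2.62 in tap/as, -1.67, -0.83 and -1.08 in as/tap, and -1.83, -2.06 and -2.09 in tap/tap. The as/tap livers were the highest, replicate 1 least so, and tap/tap overlapped tap/as. The reference channel differed by -0.42, tap/as minus as/tap, at this probe, and the liver channel alone gave a larger difference than the ratio, -1.50 (adjusted p = 0.042 in limma). Z00006531-1 read 0.00, -0.26 and -0.23 in tap/as, 0.43, 0.78 and 0.44 in as/tap, and 0.14, -0.05 and 0.08 in tap/tap. Z00035485-1 read 0.41, 0.19 and 0.27 in tap/as, 0.95, 0.61 and 0.77 in as/tap, and 0.45, 0.37 and 0.32 in tap/tap. Z00031338-1 read -0.55, -0.67 and -0.71 in tap/as, -0.20, -0.26 and -0.32 in as/tap, and -0.41, -0.54 and -0.57 in tap/tap. At all 3 the as/tap ratios were above each of the other 6 adult livers, among which tap/as and tap/tap overlapped. At Z00035485-1 the reference channel was 0.17 higher on the tap/as arrays, and the liver channel alone gave -0.29, which was not called. Without subtraction of the local background the difference of -0.49 at this probe was -0.13, and that of -0.38 at Z00031338-1 was -0.20. The liver signals over background at Z00035485-1 overlapped, at 101, 65.1 and 84.1 in tap/as and 112, 82.9 and 90.4 in as/tap. The differences between as/tap and tap/tap at these 4 probes ran from 0.25 to 0.80, with adjusted p-values of 0.18 to 0.22 in limma.

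**Figure D2:**
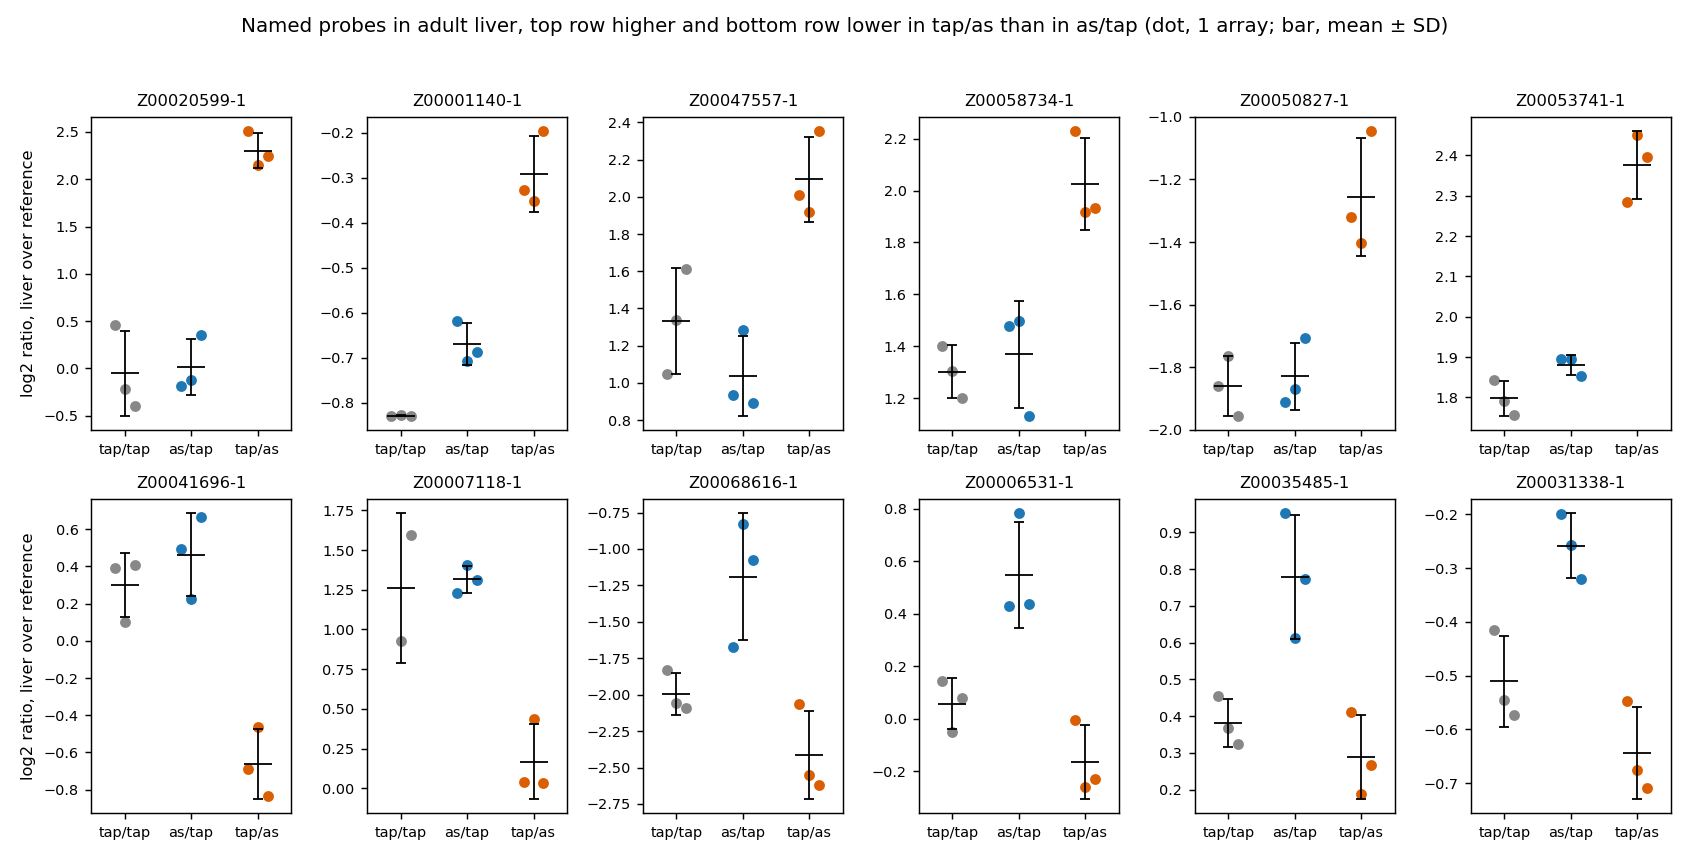
The 12 named probes, with the log2 ratio of liver over reference on the vertical axis of each panel (the axes differ) and the 3 adult groups on the horizontal one. Dots are arrays and bars give the mean ± SD; tap/as is the group apart in the top row and in the first 2 panels of the bottom row, and as/tap in the last 4.

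That pattern held more widely when the unexposed adults were placed beside the called probes. Of the 454 probes higher in tap/as, the tap/tap mean was nearer as/tap for 371, which is 81.7%, against 51.8% of all probes. Of the 267 lower in tap/as, which are those higher in as/tap, the tap/tap mean was nearer as/tap for only 66, or 24.7%, and nearer tap/as for 201. For the called probes of both directions the exposed group with the higher value was thus mostly the one farther from tap/tap. Among all probes without overlap, the called ones included, the share nearer as/tap was 66.9% with tap/as higher and 37.4% with tap/as lower. A weaker lean of the same kind was therefore present there too, and the 51.8% is not a like baseline. Among the higher probes the median difference from tap/tap was 0.37 in tap/as and -0.02 in as/tap. Among the lower probes it was -0.09 in tap/as and 0.29 in as/tap. These differences share the tap/tap arrays and are given side by side without a test.

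On a line where the as/tap mean is 0 and the tap/as mean is 1, tap/tap had a median position of 0.04 for the higher and 0.78 for the lower probes. It lay between the exposed groups for 238 of the higher (52.4%) and 188 of the lower probes (70.4%), against 24.6% of all probes. It lay below both for 46.3% of the higher and 26.2% of the lower probes, against 39.5% of all. It lay above both for 6 of the higher and 9 of the lower probes, against 35.9% of all. Calling by p picks a wide gap between the exposed groups, which by itself puts tap/tap between them more often. The shares of all probes are therefore not a like baseline. Among probes without overlap, tap/tap lay between for 46.2% with tap/as higher and 50.8% with tap/as lower. Over all probes the median SD was 0.097 in tap/tap, 0.067 in as/tap and 0.084 in tap/as. Over the called probes it was highest in tap/as, at 0.13 against 0.093 in tap/tap for the higher and 0.14 against 0.12 for the lower ones. With any 1 tap/tap array left out of the placement, the share nearer as/tap stayed between 78.2% and 84.4% for the higher and between 22.5% and 28.5% for the lower probes. With tap/as replicate 2 left out of the whole comparison, the shares were 93.9% and 50.6%, so the placement of the lower probes rests on that array.

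**Figure D3:**
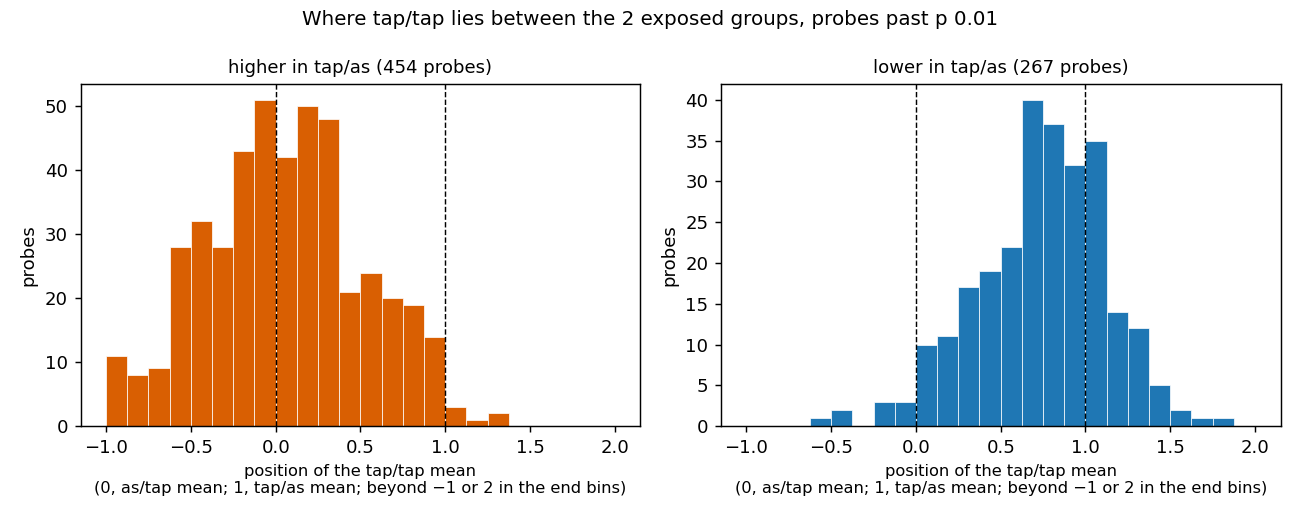
Histograms of where the tap/tap mean lay for the 454 probes called higher and the 267 called lower in tap/as, with the position between the means of as/tap (0) and tap/as (1) on the horizontal axis and the number of probes on the vertical one. Higher probes gather around as/tap (median 0.04) and lower probes toward tap/as (median 0.78), and 7 higher probes beyond -1 are counted in the end bin.

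The 33 called probes that differed by 1 or more include 5 of the 12 above. They are picked by the size of the compared difference, so they are described without further reading of that size. Tap/as replicate 1 was the tap/as liver nearest to the as/tap mean at 25 of the 33, with a median distance of 0.74 against 1.31 for replicate 2 and 1.59 for replicate 3. Of the 33, 21 were also called in each of the 6 fits that leave out 1 compared array, 8 of the higher and 13 of the lower. The others depended on 1 or more arrays.

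Several of these probes went up and down together across arrays. Among 528 pairs of the 33, 6 pairs correlated at 0.95 or above over the 15 arrays, and the pairs shared at most 9 consecutive bases. This is a description over arrays that include both ages. All 33 were chosen for a large difference between the compared groups, which by itself makes their values move together. Pairs of other probes were not compared. The pair of Z00034757-1 and Z00047557-1 correlated at 0.97 over the 15 arrays but at 0.77 over the 9 adult arrays, and the other 5 pairs at 0.98 to 1.00 over the adult arrays. The sequences of the probes in those 5 pairs, which form 3 sets, chosen after their values were seen, are shown so that their identity can be checked. The first set had the largest differences of all called probes.
Z00005948-1: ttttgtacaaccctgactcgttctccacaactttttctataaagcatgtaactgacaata
Z00006191-1: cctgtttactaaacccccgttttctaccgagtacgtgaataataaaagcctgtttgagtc
The second set and the third set were lower in tap/as.
Z00071522-1: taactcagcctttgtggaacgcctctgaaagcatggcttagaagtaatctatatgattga
Z00027161-1: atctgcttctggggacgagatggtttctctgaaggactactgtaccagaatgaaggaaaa
Z00000439-1: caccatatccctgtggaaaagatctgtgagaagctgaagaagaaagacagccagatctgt
Z00001979-1: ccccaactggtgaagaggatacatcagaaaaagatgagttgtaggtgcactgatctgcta
Z00014657-1: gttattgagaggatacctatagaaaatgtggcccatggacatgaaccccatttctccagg

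Z00005948-1 read -3.02, -0.01 and 0.00 in tap/as, -3.81, -5.25 and -4.37 in as/tap, and -1.30, -1.63 and 0.54 in tap/tap. Z00006191-1 read -2.84, -0.27 and -0.48 in tap/as, -3.29, -4.39 and -3.66 in as/tap, and -1.74, -1.81 and -0.38 in tap/tap. All 3 as/tap livers and tap/as replicate 1 were low at both probes, and the other tap/as livers were within the tap/tap range or close to it. The 2 probes correlated at 0.99 over the 15 arrays and over the 9 adult arrays. Their differences were 3.47 ± 0.77 and 2.58 ± 0.65 (SE), with adjusted p-values of 0.27 and 0.35 in limma, and the SD within tap/as was 1.74 and 1.43. Here as/tap was the group apart, by -3.68 and -2.47 from tap/tap (adjusted p = 0.18 and 0.22 in limma). Newborn livers read near the top of the adult range or above it, with means of 1.56 without and 1.18 with arsenic at the first probe. Neither probe was saturated, and all 9 adult arrays were well above background.

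In the second set, Z00071522-1 read -1.04, -1.45 and -1.86 in tap/as, -0.87, 0.07 and -0.26 in as/tap, and -1.12, -1.06 and -1.11 in tap/tap. Z00027161-1 read within 0.12 of it on each adult array, and the correlation was 1.00 over all 15. The difference was largest in as/tap replicates 2 and 3, while as/tap replicate 1 was close to tap/as replicate 1. Their differences were -1.09 ± 0.25 and -1.10 ± 0.27 (SE), with adjusted p-values of 0.27 and 0.33 in limma.

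The third set joined Z00000439-1, Z00001979-1 and Z00014657-1, with pairwise correlations of 0.95 to 0.98. Z00014657-1 read -0.88, -1.73 and -1.94 in tap/as, 0.07, 0.90 and -0.32 in as/tap, and -1.23, -1.72 and -1.63 in tap/tap. The as/tap livers were above all other adult livers, replicate 2 by the most, and tap/as replicate 1 was the highest of the rest. Its difference of -1.74 ± 0.36 (SE, adjusted p = 0.25 in limma) was the largest among the lower probes. Z00000439-1 differed by -1.06 ± 0.25 and Z00001979-1 by -1.23 ± 0.27 (SE, adjusted p = 0.31 and 0.27 in limma).

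A further pair of the 33, singled out after their values were seen, bear on age and on the scanner's range. Z00034757-1 read -0.35, 0.40 and 0.32 in tap/as, -1.60, -0.27 and -1.17 in as/tap, and -0.81, -1.44 and -1.14 in tap/tap. As/tap replicate 2 overlapped tap/as there. The 6 newborn livers were at 4.43 or above, and the highest adult liver was at 0.40. Z00024586-1 was lower in tap/as by 1.21 in the ratio, at 5.43, 5.38 and 4.62 against 6.64, 5.94 and 6.48 in as/tap. Its liver signal was saturated on all 3 tap/as arrays and on 1 as/tap array, its liver channel alone was 0.19 higher in tap/as, and its reference channel was 1.58 higher. The ratio therefore gives no liver difference for this probe.

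**Figure D4:**
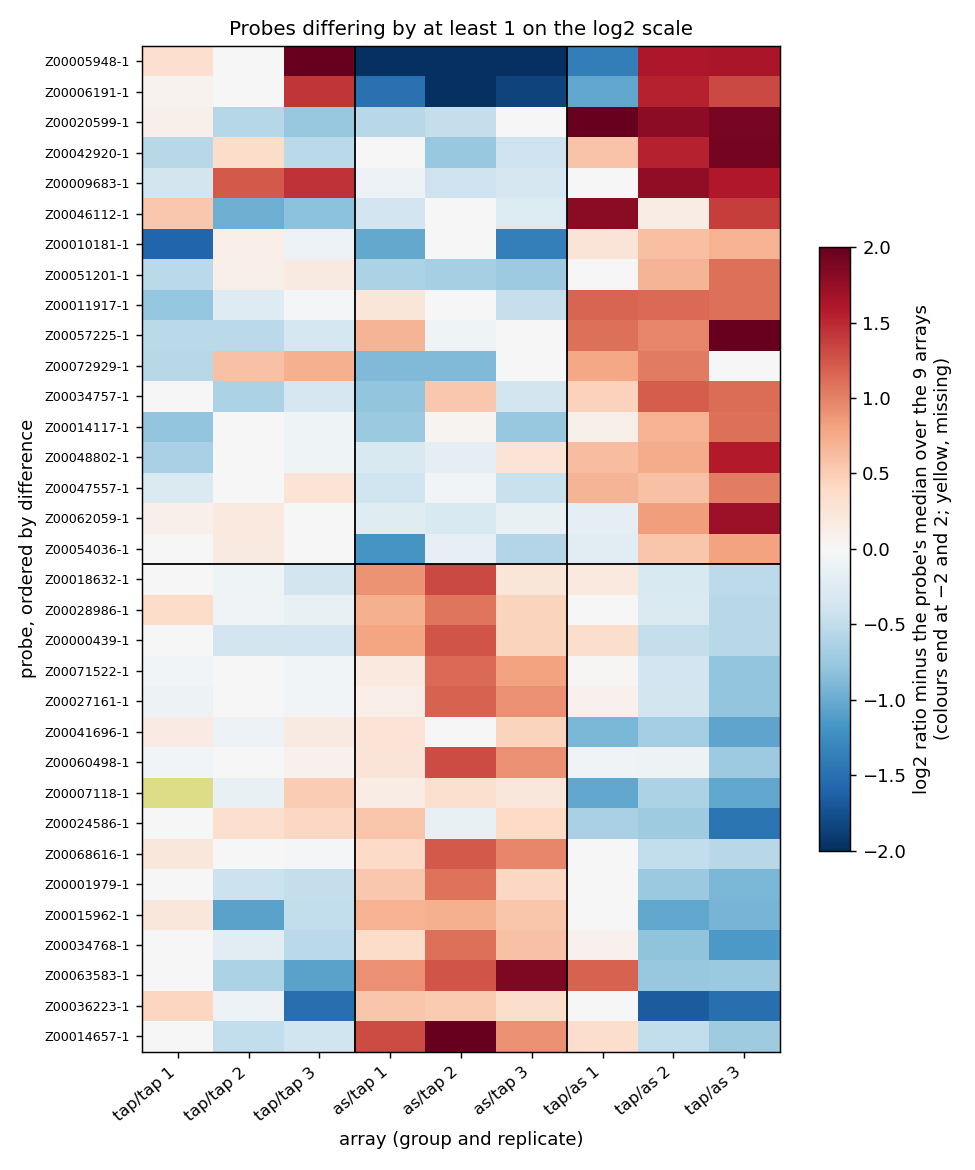
The 33 called probes that differed by at least 1, in rows ordered by their difference, over the 9 adult arrays in columns. Colour is the log2 ratio minus the probe's median over the 9 arrays, and tap/as replicate 1 is the tap/as column closest to the as/tap columns for 25 of the 33 rows.

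Features that the comparison did not use are given as descriptions, with no test. Of the higher probes, 13.4% were lower in adult than in newborn liver by 1 or more and 7.49% were higher by as much. Both shares were 7.87% for the lower probes, and over all probes they were 6.62% and 3.59%. The median difference between the ages was near 0 in each set. The median GC content of the probes was 45.0% for the higher, 41.7% for the lower and 43.3% for all probes. The hexamer AATAAA, searched on the printed strand, was present in 21 of the higher (4.63%), 27 of the lower (10.1%) and 6.75% of all probes. It is the usual signal for the end of a messenger RNA, and a match is a description only. By position on the array, 1.62% to 1.93% of probes were called in 4 areas of like size.

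Only a few probes could be placed on the genome. Of all probes, 134 matched a RefSeq promoter window (GRCm38.p6, 250 bases before to 50 after a gene's start) over their whole length, and 4 of these (2.99%) were called, against 1.72% of all probes. All 4 were higher in tap/as, and so few allow no reading of their direction. The match gives a position and not the gene the probe measures. The probe with the largest difference of the 4 is printed for that reason.
Z00055649-1: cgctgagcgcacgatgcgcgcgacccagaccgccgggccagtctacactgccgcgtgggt
It matched chr15:99590881-99590940 on the plus strand, ending 88 bases before the annotated start of Aqp5, a water channel gene on that strand, and so outside the annotated gene. It read 3.44, 3.86 and 3.27 in tap/as, 2.45, 2.30 and 2.91 in as/tap, and 2.79, 3.72 and 3.49 in tap/tap. The as/tap livers were lower than tap/as without overlap, and tap/tap spanned both. The difference was 0.97 ± 0.30 (SE), with an adjusted p of 0.52 in limma. The other matches were Z00032507-1 at chr1:85496246-85496305, 125 bases before Gm2427, Z00064787-1 at chr7:45924136-45924195, 20 bases before Ccdc114, and Z00071593-1 at chr5:96162123-96162182, 133 bases before Cnot6l on the minus strand. Their differences were 0.25, 0.25 and 0.25.

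The reference RNA was the same on every array, and its channel was compared in the same way. It holds no variation between mice and is not a ratio, so its count is no measure of how many liver probes would be called without a difference. In that channel 573 probes, or 1.36%, had a p under 0.01 between tap/as and as/tap arrays, and none passed the adjustment, with 3423 at an unadjusted p under 0.05 in limma. The median size of the difference was 0.09 over all probes against 0.06 in the ratio. Of the 721 called probes, 33 also had a reference p under 0.01. At 156 the reference difference was at least 0.5 times that of the ratio. With the liver channel alone 709 probes were called, and 331 of the 721 calls of the ratio were among them, fewer than under any other background, normalization, filter or model alternative.

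The arrays of the compared groups did not overlap in liver (Cy3) brightness, while their reference (Cy5) medians over background did, at 371 to 402 on as/tap and 371 to 431 on tap/as. Median Cy3 signals over background were 133 to 138 on the as/tap, 152 to 166 on the tap/as and 146 to 193 on the tap/tap arrays, and 93.2% to 96.2% of probes were above the 95th percentile of the negative controls. The quantile step equalizes the distributions of the channels between arrays, and the part of the brightness before it in the results was not tested. The median absolute difference between 2 arrays was 0.069 to 0.083 within as/tap, 0.087 to 0.115 within tap/as and 0.076 to 0.113 between the groups, so the groups were about as far apart as the tap/as livers were from one another. Within tap/tap it was 0.073 to 0.141. Tap/tap replicate 1 was 0.130 and 0.141 from the other tap/tap arrays, but 0.097 from as/tap replicate 1 and 0.100 from tap/as replicate 3.

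How many probes were called depended on single livers. Without tap/as replicate 3 the count was 387, without as/tap replicate 2 it was 441, and without as/tap replicate 1 it was 467. Without tap/as replicate 1 it was 877, with 16 past the adjusted threshold. Of the 721 called probes, 194 were called in each of the 6 fits that leave out 1 compared array, 124 of the higher and 70 of the lower. All 12 named probes were among them.

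**Figure D5:**
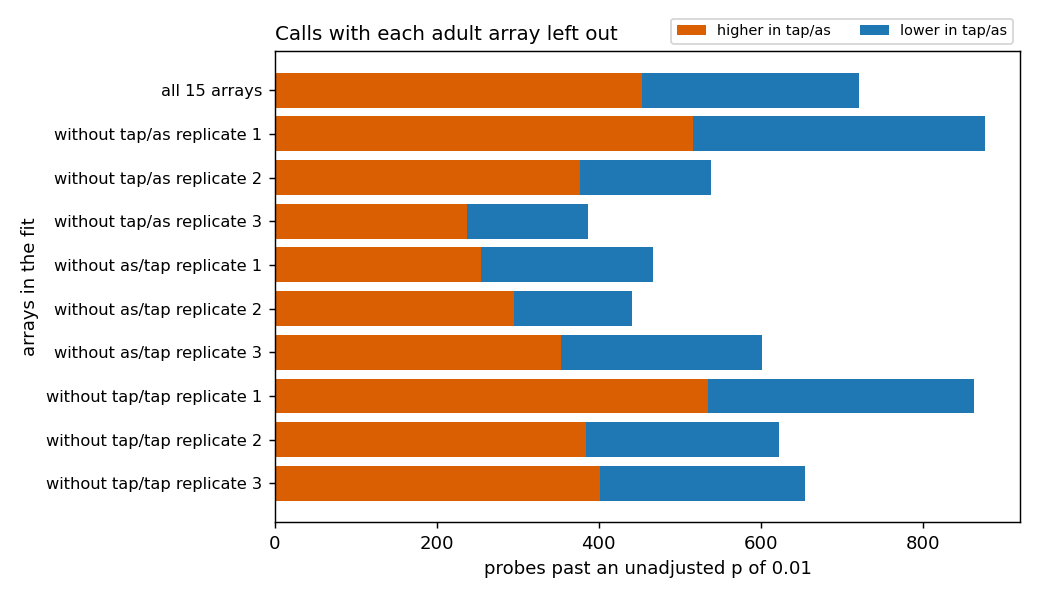
Horizontal bars give the number of probes past an unadjusted p of 0.01 between tap/as and as/tap, higher in orange and lower in blue, with all 15 arrays and with each adult array left out. The count runs from 387 without tap/as replicate 3 to 877 without tap/as replicate 1, against 721 with all arrays.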

How the data were processed

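On each array the authors paired 1 liver RNA (Cy3) with the pooled reference RNA (Cy5), and the deposited files are scanner output of Agilent Feature Extraction A.7.5.1. Per the file headers, the intensity columns hold the mean and local background of every spot in both dyes, with no scaling across arrays. A log10 ratio of Cy5 to Cy3, corrected by the scanner software, was also deposited, and with its sign turned it served as an alternative.

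From the intensity values, background was corrected by normexp with an offset of 50. Each channel was then quantile normalized over the 15 arrays, and the log2 ratios of liver over reference were smoothed by loess (span 0.3) array by array. The quantile and smoothing steps are named in the study's methods. They also name mean-centring, which was left out here, and the background correction was added. Control spots were dropped, outlier spots were set missing, and 42034 spots were averaged to 42006 probes. A model with 1 mean per group was fitted to all 15 arrays with limma 3.58.1 in R 4.3.3 (10 residual and 3.15 prior degrees of freedom). The study's two-way model was replaced by this contrast. The fits were tested on simulated data. The number of arrays limits the precision.

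The named probes are the 6 in each direction with the smallest unadjusted p among called probes without overlap, with the higher group above the negative controls, plus any past the adjusted threshold. The members, the rule and the lists were chosen with earlier results of these data known. Lists of genes and cell type markers were planned and left out because the files do not pair probes with genes. Same-numbered arrays did not deviate together (correlations across probes of -0.13, -0.00 and -0.28), so the numbers were not used as pairs. Alternatives were other background and normalization steps, a filter on dim probes, fewer arrays, unmoderated variances, array weights, a replicate block, the adjusted threshold and each array left out. Leaving out each tap/tap array was added after the data were seen.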

Additional observations from a re-analysis of the deposited data

How the results depend on the processing

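No named probe changed direction under any of 22 alternatives, and 263 of 264 values kept an unadjusted p under 0.01 in limma. The exception was Z00035485-1 in the liver channel alone. The 12 were chosen for a small p on these same arrays, so this is largely brought about by the choice. Without background subtraction 7 of the 12 differences shrank by over 1.5 times. The 721 calls became 1225 with the 9 adult arrays only, 1432 with the 6 compared arrays only, 1765 with array weights and 2 at the adjusted threshold. Leaving out 1 of the 6 compared arrays gave 387 to 877. With the replicate block 805 were called, and 1 in place of 2 passed the adjustment. The adjusted count was 1 with ratios quantile normalized after loess, with the 6 compared arrays and with unmoderated variances, 5 in the liver channel alone, 99 with array weights, 0 with the 9 adult arrays (1225 at p under 0.01 in limma), and 1 to 16 with an array left out. The share of calls higher in tap/as ran from 51.9% without background subtraction to 69.9% without tap/as replicate 2. Tap/tap was nearer as/tap for 71.0% to 93.9% of the higher and 13.7% to 50.6% of the lower probes, each over the calls of its own fit. In the reference channel 573 became 881 without background subtraction, 905 with the adult arrays, 1089 with the compared arrays, 7275 with array weights, 337 with the replicate block, and 227 to 1886 with an array left out. Of the 721 calls, 113 were made under each of the normalization, filter and model alternatives and with each compared array left out. The fits without a tap/tap array did not enter that count. The causes were not tested. Gene list alternatives were not run, since the files give no gene names. With 3 arrays a group, the median SE of a difference was 0.09 on the log2 scale.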
